A study of Homo sapiens with 8 samples.

Results

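The integrated stress response is a pathway by which cells under stress slow protein synthesis and switch on repair genes through the transcription factor ATF4. Its main effectors are described here by 10 genes chosen by symbol: ATF4, ATF5, DDIT3, DDIT4, TRIB3, CHAC1, PPP1R15A, PPP1R15B, NUPR1 and CEBPG. Of 18404 genes measured, all 10 had a value. They were followed in HepG2, a human liver tumour cell line, on 8 single-channel expression arrays. In 4 cultures the cells were exposed to 0.5 mM hydrogen peroxide (H2O2) for 60 minutes to drive them into senescence, a state in which cells stop dividing for good. Cultures kept in medium without H2O2, also 4, are called untreated. All cultures were then washed and kept for 5 days before the senescent phenotype was tested, and the labels give no separate time for RNA. HepG2 is a single tumour-derived line, so both groups share its genetic background.

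Kinases that sense amino acid shortage, unfolded protein, heme shortage or viral RNA phosphorylate the initiation factor eIF2. Bulk translation then slows, while the ATF4 message is translated more. ATF4 dimerizes with C/EBP proteins and binds the C/EBP-ATF element in genes for amino acid supply and for the effectors. In liver cells the pathway is known for its part in the response to amino acid shortage and to mitochondrial and endoplasmic reticulum stress. Arrays measure RNA only, so neither eIF2 phosphorylation nor ATF4 protein was measured.

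Promoter stretches of 5 effectors are shown because they carry the sites by which the pathway and its neighbours are usually read. They are the 250 bases before a RefSeq transcription start in assembly GRCh38.p14, printed 5′ to 3′ on the gene's strand. In the first 3 the capitals mark the C/EBP-ATF element, TGATGNAA on either strand. In PPP1R15A they mark the cAMP response element TGACGTCA, and in DDIT4 the hypoxia element core ACGTG.
CHAC1 (chr15:40953221-40953470, plus strand): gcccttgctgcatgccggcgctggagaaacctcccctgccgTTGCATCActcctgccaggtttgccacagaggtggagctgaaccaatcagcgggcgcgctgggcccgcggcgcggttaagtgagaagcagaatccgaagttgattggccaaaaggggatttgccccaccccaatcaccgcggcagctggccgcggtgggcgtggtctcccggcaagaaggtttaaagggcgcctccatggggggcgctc
PPP1R15B (chr1:204411818-204412067, minus strand): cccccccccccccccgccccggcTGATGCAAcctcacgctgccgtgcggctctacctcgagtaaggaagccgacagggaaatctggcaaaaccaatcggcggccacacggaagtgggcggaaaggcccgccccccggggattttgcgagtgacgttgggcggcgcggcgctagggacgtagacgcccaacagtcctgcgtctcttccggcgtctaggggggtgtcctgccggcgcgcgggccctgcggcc
CEBPG (chr19:33373863-33374112, plus strand): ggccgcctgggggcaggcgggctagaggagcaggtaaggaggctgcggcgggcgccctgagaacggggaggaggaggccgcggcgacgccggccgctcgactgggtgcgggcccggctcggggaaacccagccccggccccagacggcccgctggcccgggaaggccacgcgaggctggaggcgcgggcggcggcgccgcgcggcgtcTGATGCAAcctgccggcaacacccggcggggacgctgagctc
PPP1R15A (chr19:48872171-48872420, plus strand): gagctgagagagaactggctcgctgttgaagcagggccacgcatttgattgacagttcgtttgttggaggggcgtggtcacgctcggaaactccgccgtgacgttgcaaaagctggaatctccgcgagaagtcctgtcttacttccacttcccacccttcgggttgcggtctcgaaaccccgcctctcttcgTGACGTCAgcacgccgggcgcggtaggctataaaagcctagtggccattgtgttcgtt
DDIT4 (chr10:72273674-72273923, plus strand): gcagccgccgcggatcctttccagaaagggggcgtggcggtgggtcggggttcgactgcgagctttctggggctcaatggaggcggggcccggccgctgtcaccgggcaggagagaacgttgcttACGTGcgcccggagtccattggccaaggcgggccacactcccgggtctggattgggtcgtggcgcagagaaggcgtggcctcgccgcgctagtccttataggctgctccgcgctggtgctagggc

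The comparison asked how the RNA of these effectors differed between H2O2-treated and untreated cells. They did not move as a block: PPP1R15A, NUPR1 and ATF5 rose, DDIT4, ATF4, CEBPG and TRIB3 fell, and DDIT3, CHAC1 and PPP1R15B did not pass the test. Thus 7 of 10 were called (limma, Benjamini-Hochberg adjusted p under 0.05 over all genes), where 34.0% of all genes were called. Of all genes, 19.2% were called higher and 14.8% lower. The groups did not overlap for these 7 members, as for 33.7% of all genes. The median size of the members' log2 differences, whatever their sign, was 0.40, against 0.14 over all genes. A positive log2 difference means more RNA after H2O2, and its ± is the standard error. Levels are mean log2 expression ± SD, with n = 4 arrays per group. In a bulk culture, fewer cells with a transcript and less of it per cell cannot be told apart.

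**Figure D1:**
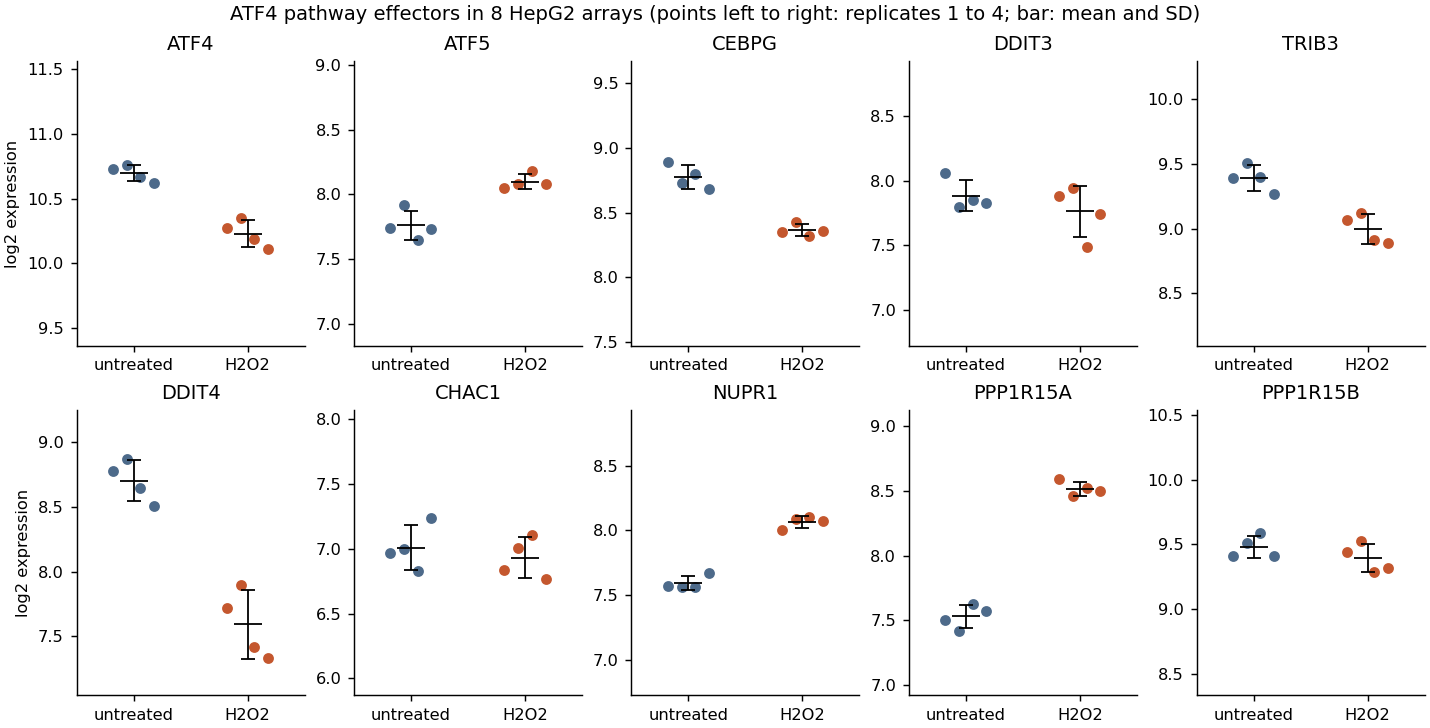
Log2 expression of the 10 effectors (y axis, each panel spanning the same range) in untreated and H2O2 arrays, with points for replicates 1 to 4 from left to right and bars for mean and SD (n = 4). DDIT4 lies between 8.51 and 8.87 in untreated arrays and between 7.33 and 7.90 in H2O2 arrays, PPP1R15A moves the other way, and the groups overlap for DDIT3, CHAC1 and PPP1R15B.

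Array medians lay between 6.85 and 6.93. Across probe sets (not independent of each other), Pearson's r was 0.990 to 0.996 within groups and 0.979 to 0.985 between them. Of 10 hepatocyte markers 9 had a value, with untreated means from 11.05 to 12.87, among them albumin (ALB, 12.55 ± 0.034) and alpha-fetoprotein (AFP, 12.87 ± 0.025). These markers fell in 6 cases and rose in 1, where 14.8% of all genes were called lower and 19.2% higher. Their mean level per array was 12.10 to 12.15 in untreated and 11.64 to 11.92 in H2O2 arrays. Of 13 markers of leukocytes, endothelium and fibroblasts, 4 rose and 2 fell, and 6 lay below the array median in both groups. Their mean level per array was 7.28 to 7.34 in untreated and 7.39 to 7.55 in H2O2 arrays. The 6 were PTPRC, DCN, KDR, VWF, PECAM1 and COL3A1. Untreated means in this list ran from 4.23 ± 0.080 for the leukocyte marker PTPRC to 12.90 ± 0.015 for LYZ, a lysozyme of myeloid cells, which was not called. The largest changes were rises of ACTA2, a smooth muscle actin (10.05 ± 0.096 to 11.55 ± 0.076), and CD68, a macrophage marker (9.56 ± 0.082 to 10.36 ± 0.087), and a fall of the pericyte receptor PDGFRB (8.13 ± 0.18 to 6.97 ± 0.082). The part of either marker set in the results was not tested.

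Among the transcription factors, ATF4 itself was lower after H2O2. It read 10.73, 10.76, 10.67 and 10.62 in the untreated arrays (replicates 1 to 4, the order used throughout) and 10.27, 10.35, 10.19 and 10.11 in the H2O2 arrays. Every H2O2 array lay below every untreated array. The log2 difference was -0.46 ± 0.071, or 1.38-fold lower (limma adjusted p = 0.000155). Only 5.38% of all genes had a larger fall. ATF4 has 2 probe sets with this symbol alone, and the brighter of them is used here. The other gave -0.37 ± 0.10 (limma over all probe sets, adjusted p = 0.0131), with untreated values of 10.34, 10.24, 9.93 and 10.52 and H2O2 values of 9.84, 9.88, 9.87 and 9.95. Both probe sets were lower, but untreated replicate 3 overlapped the H2O2 arrays in the dimmer one. ATF4 also has processed pseudogenes, so its values are uncertain to the extent that probes detect these.

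ATF5, a relative of ATF4 whose message is likewise controlled at translation and which drives the mitochondrial unfolded protein response, went the other way. Its untreated values were 7.74, 7.92, 7.65 and 7.73 and its H2O2 values 8.05, 8.08, 8.18 and 8.08. The gap between the groups was narrow but without overlap. ATF5 rose by 0.34 ± 0.072 (1.26-fold, limma adjusted p = 0.00213). The change of ATF4 relative to ATF5 within arrays was -0.80 (exact two-sided permutation test, p = 0.0286, the smallest that 4 against 4 arrays allow). Adjusted over the 3 pairs of members compared, p was 0.0429. Both genes had groups without overlap, in opposite directions, so the smallest p was already fixed by the single-gene values. The pair was also chosen with earlier results of these data known, so the test adds no independent support.

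CEBPG, a C/EBP protein that dimerizes with ATF4 and is itself an ATF4 target, was also lower after H2O2. It read 8.89, 8.73, 8.80 and 8.68 in untreated cells and 8.35, 8.43, 8.32 and 8.36 after H2O2. The highest H2O2 array stayed below the lowest untreated array. The log2 difference was -0.41 ± 0.068 (1.33-fold lower, limma adjusted p = 0.000278). Its C/EBP-ATF element lies at bases -42 to -35, counted from the start with -1 as the base just before it.

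DDIT3, which encodes CHOP, the factor that turns prolonged stress towards cell death, did not pass. Its values were 8.06, 7.80, 7.85 and 7.83 in untreated cells and 7.88, 7.94, 7.49 and 7.74 in H2O2 cells, with overlapping groups. The log2 difference was -0.12 ± 0.098 with a 95% interval from -0.34 to 0.088 (limma adjusted p = 0.381). A rise beyond 0.088 or a fall beyond 0.34 on the log2 scale lies outside that interval. H2O2 replicate 3 was the lowest array for this gene.

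TRIB3, a pseudokinase induced by ATF4 and CHOP that feeds back on ATF4 and restrains AKT, was lower. Untreated arrays read 9.39, 9.51, 9.40 and 9.27, and H2O2 arrays 9.07, 9.12, 8.91 and 8.89. The groups did not overlap, and the log2 difference was -0.40 ± 0.078 (limma adjusted p = 0.00118). DDIT3 and TRIB3 were not shown to change unequally: the difference within arrays shifted by 0.27 (exact two-sided permutation p = 0.0571, also after adjustment over the 3 pairs). Its relative TRIB1, a pseudokinase that marks C/EBP proteins for breakdown, rose by 1.05 ± 0.071 (9.62 ± 0.087 to 10.68 ± 0.081). In the list of family relatives TRIB1 was the member called, beside 34.0% of all genes, while TRIB2, CEBPE, CEBPZ and NUPR2 did not pass. A second rise was called without H2O2 replicate 3.

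DDIT4 showed the largest fall among the effectors. It encodes REDD1, which restrains the growth kinase complex mTORC1 through TSC1 and TSC2, and it is known as a target of ATF4, of the hypoxia factor HIF1 and of p53. Untreated replicates 1 to 4 read 8.78, 8.87, 8.65 and 8.51, and H2O2 replicates 7.72, 7.90, 7.42 and 7.33. The lowest untreated array stood well above the highest H2O2 array. DDIT4 was 2.16-fold lower (log2 difference -1.11 ± 0.12, limma adjusted p = 6.26e-06). Of all genes, 138, or 0.75%, had a larger fall.

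CHAC1, an enzyme that degrades glutathione and is a sensitive ATF4 target, did not pass. It read 6.97, 7.0, 6.83 and 7.24 in untreated cells and 6.84, 7.01, 7.11 and 6.77 in H2O2 cells, close to the array medians, where signal cannot be told from background here. The groups overlapped over most of their range. The difference was -0.079 ± 0.097 (95% interval -0.29 to 0.13, limma adjusted p = 0.591). Its C/EBP-ATF element, read on the opposite strand as TTGCATCA, lies at bases -209 to -202.

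NUPR1, a small stress-induced chromatin protein that acts with ATF4 in several stress programmes, rose. Its untreated values were 7.57, 7.56, 7.56 and 7.67 and its H2O2 values 8.0, 8.09, 8.10 and 8.07. Spread within each group was small, with an SD of 0.050 and 0.043. The log2 difference was 0.47 ± 0.063 (1.39-fold, limma adjusted p = 4.33e-05).

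The regulatory subunits that bring protein phosphatase 1 to eIF2 and so end the response behaved unlike each other. PPP1R15A, or GADD34, is the stress-induced subunit and closes the feedback loop. It read 7.5, 7.42, 7.63 and 7.57 in untreated and 8.59, 8.46, 8.52 and 8.50 in H2O2 replicates. All H2O2 arrays lay far above all untreated arrays. The rise was 0.99 ± 0.068, or 1.99-fold (limma adjusted p = 1.12e-07), and 1.9% of all genes rose more.

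PPP1R15B, or CReP, is the constitutive subunit. Its values were 9.41, 9.51, 9.59 and 9.41 in untreated and 9.44, 9.53, 9.29 and 9.32 in H2O2 replicates, with overlap. The difference was -0.084 ± 0.076 (95% interval -0.25 to 0.079, limma adjusted p = 0.444). The change of PPP1R15A relative to PPP1R15B within arrays was 1.07 (exact two-sided permutation p = 0.0286, adjusted over the 3 pairs p = 0.0429). The groups of PPP1R15A lay farther apart than the full range of PPP1R15B, so this smallest p was already fixed by the single-gene values. This pair, too, was chosen with earlier results of these data known, so the test adds no independent support. The promoter stretch of PPP1R15B holds the C/EBP-ATF element at bases -227 to -220, and that of PPP1R15A holds the cAMP response element at -58 to -51.

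**Figure D2:**
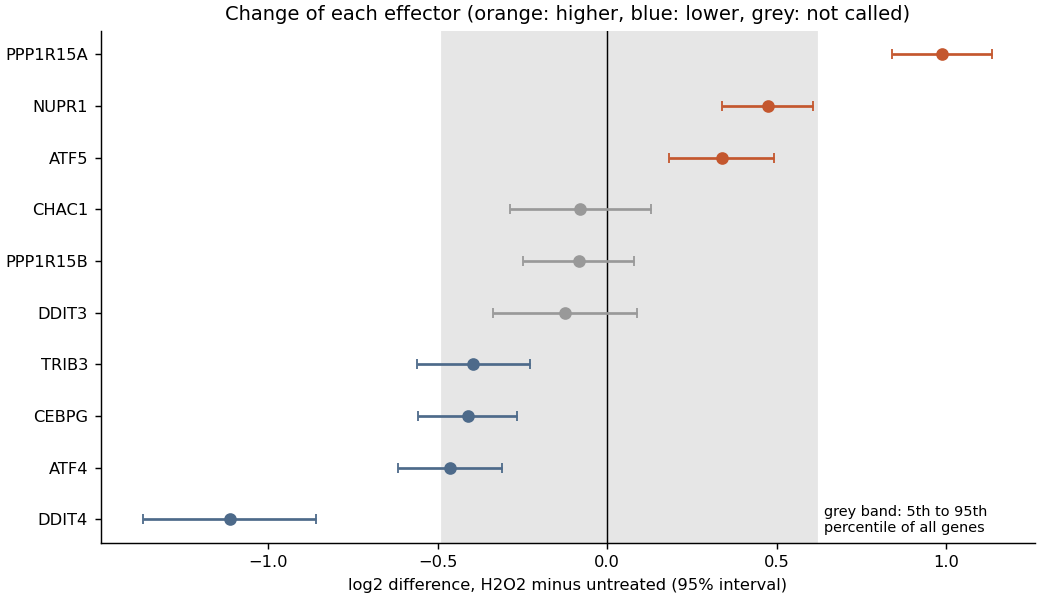
Log2 difference, H2O2 minus untreated (x axis), of each effector with its 95% interval from limma (n = 4 per group), over a grey band from the 5th to the 95th percentile of all genes, -0.49 to 0.62. PPP1R15A lies above the band and DDIT4 below it, and the intervals of CHAC1, PPP1R15B and DDIT3 include 0.

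Apart from the treatment, some effectors varied together from array to array. After each group's mean was subtracted, ATF4 and DDIT4 had a Pearson r of 0.99 and a Spearman rho of 1.0 over the 8 arrays. Without the 2 arrays farthest from the median of ATF4, r was 0.98. ATF4 and TRIB3 gave r = 0.92 and rho = 0.95, and DDIT4 and TRIB3 gave r = 0.95 and rho = 0.95. All 3 genes were highest in replicate 2 and lowest in replicate 4 of both groups. These are descriptions of 8 arrays with no test, and the genes share each array's RNA and scaling. They were the 3 pairs of 45 with r of 0.8 or more, and the median r over the 45 pairs was 0.052.

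PPP1R15A did not follow this pattern, with r = -0.42 to ATF4. CEBPG, which fell as ATF4 did, had r = 0.45 to ATF4, and 23.1% of all genes had a higher one. Of all genes, 4 had a higher r to ATF4 than DDIT4 had, and 100 a higher r than TRIB3. The r of ATF4 and DDIT4 was 0.92 after quantile normalization, and ATF4's deviations had r = -0.54 with the array medians. The tie rests on the brighter ATF4 probe set. The other ATF4 probe set gave r = -0.23 to DDIT4, r = -0.42 to TRIB3 and r = -0.20 to the brighter one. Over the values with the treatment included, ATF4 was the gene most like DDIT4 (r = 0.998, 8 arrays, among 11249 genes whose mean over all 8 arrays lay above the array median). ACAT2, of cholesterol synthesis, and CCNA2, a cyclin of DNA replication and mitosis, followed at 0.998. The genes most like PPP1R15A were CCND2, TIMP2 and TRPV2, with r = 0.999, 0.998 and 0.998. CCND2 passed the filter through its H2O2 arrays (mean 8.76), since its untreated mean of 6.61 lay below the array median. Such values mostly mirror the group difference: 658 genes reached an r of 0.95 with DDIT4 and 1075 with PPP1R15A.

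**Figure D3:**
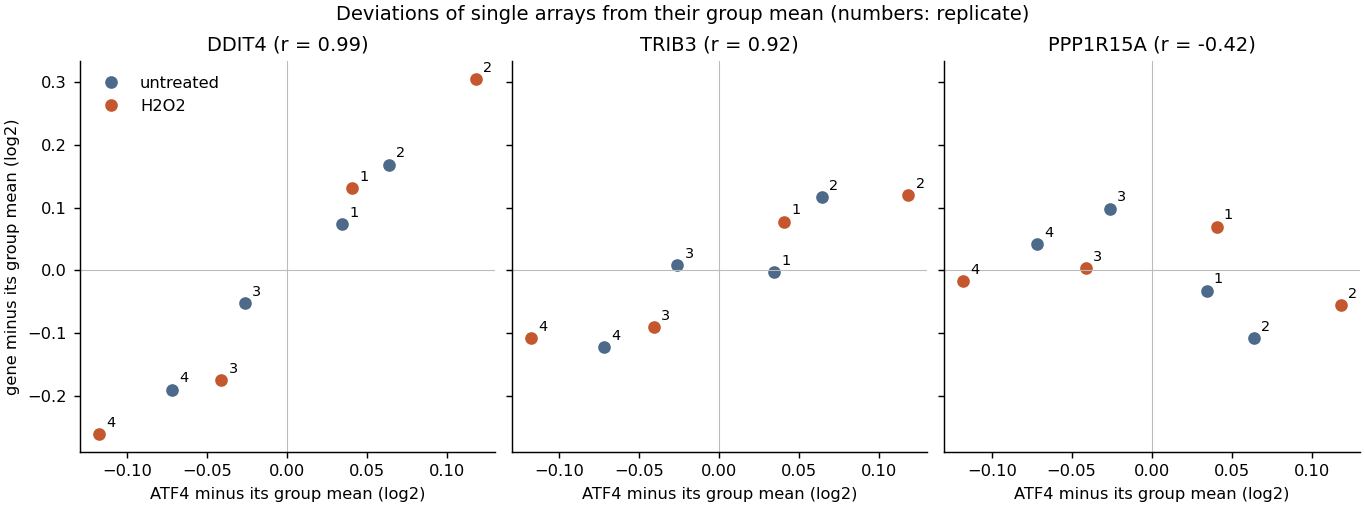
Deviation of single arrays from their group mean in log2 units, ATF4 on the x axis and DDIT4, TRIB3 or PPP1R15A on the y axis, with points coloured by group and numbered by replicate. DDIT4 (r = 0.99) and TRIB3 (r = 0.92) track the brighter ATF4 probe set, whereas PPP1R15A (r = -0.42) does not.

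Upstream of ATF4, in the list of eIF2alpha kinases and their regulators, 1 of 9 rose and 1 fell, where 34.0% of all genes were called either way. The median was 0.018 against -0.022 over all genes. EIF2AK4, the amino acid sensor GCN2, rose by 0.31 ± 0.063 (9.88 ± 0.066 to 10.19 ± 0.019). DELE1, which relays mitochondrial stress, fell by 0.23 ± 0.067, a call lost without H2O2 replicate 4 (adjusted p = 0.0528). Leaving out untreated replicate 3 gave 2 rises in this list, and leaving out H2O2 replicate 2 gave 2 falls. For eIF2 and eIF2B subunits and PP1 catalytic subunits, 2 of 12 rose and 2 fell (median 0.036). The shares over all genes, 19.2% higher and 14.8% lower, were close to those of this list. EIF2B2, a subunit of the exchange factor that recharges eIF2, rose by 0.54 ± 0.072, and EIF2S1, the eIF2 subunit that is phosphorylated, by 0.32 ± 0.082. EIF2A (-0.37 ± 0.066), an initiation factor distinct from eIF2, and the phosphatase PPP1CC (-0.23 ± 0.061) fell.

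Of 16 bZIP partners and related stress factors 5 rose and 4 fell, with a median of -0.033. Among all genes 19.2% were called higher and 14.8% lower. JUN, a core AP-1 factor, rose by 1.40 ± 0.090 and JUNB by 0.48 ± 0.071. NFIL3, a repressor with a bZIP domain (-0.69 ± 0.077), and CEBPD, a stress-responsive C/EBP protein (-0.56 ± 0.075), fell. The count of rises dropped to 3 when H2O2 replicate 2, H2O2 replicate 4 or untreated replicate 1 was left out.

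Downstream, the ATF4 targets of serine, asparagine and proline synthesis were the most uniformly lower of the ATF4 target lists: 8 of 10 fell and 0 rose, with a median of -0.55. Shares over all genes, to be read beside each target list, were 14.8% lower and 19.2% higher. PHGDH, which opens serine synthesis, fell by 0.999 ± 0.067 (11.61 ± 0.090 to 10.62 ± 0.042). CTH, which makes cysteine from cystathionine, fell by 0.87 ± 0.091. Of 11 ATF4 target amino acid transporters 5 fell and 1 rose (median -0.15). The 5 include SLC7A11, which did not pass with the replicate block (adjusted p = 0.0812), leaving 4. The glycine transporter SLC6A9 fell by 0.46 ± 0.074 and the cationic amino acid transporter SLC7A1 by 0.37 ± 0.085, while the neutral amino acid transporter SLC1A4 rose by 0.42 ± 0.071. Of 13 genes in the list of aminoacyl-tRNA synthetases, which includes the tRNA exporter XPOT, 5 fell and 1 rose (median -0.035). XPOT fell by 0.53 ± 0.073 and LARS1, for leucine, by 0.33 ± 0.076, and WARS1, for tryptophan, rose by 0.50 ± 0.087. Without untreated replicate 3 there were 2 rises.

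The other ATF4 and CHOP targets were split, 7 of 17 having risen and 6 having fallen (median -0.039). Among all genes 19.2% were called higher and 14.8% lower. PMAIP1 (NOXA), which promotes apoptosis, rose by 1.55 ± 0.097 and SESN2, a sestrin that restrains mTORC1, by 0.88 ± 0.069. Both are also known p53 targets. GADD45A, which rose by 0.88 ± 0.0725, and BBC3, which did not pass, are counted in this list and again among the p53 targets below. PMAIP1 went from 6.58 ± 0.067 to 8.13 ± 0.22. Its untreated level lies below the array median, where signal cannot be told from background here, so the size of the rise is uncertain. STC2, a secreted glycoprotein, fell by 0.77 ± 0.087 and KDM7A, a histone demethylase, by 0.67 ± 0.085.

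**Figure D4:**
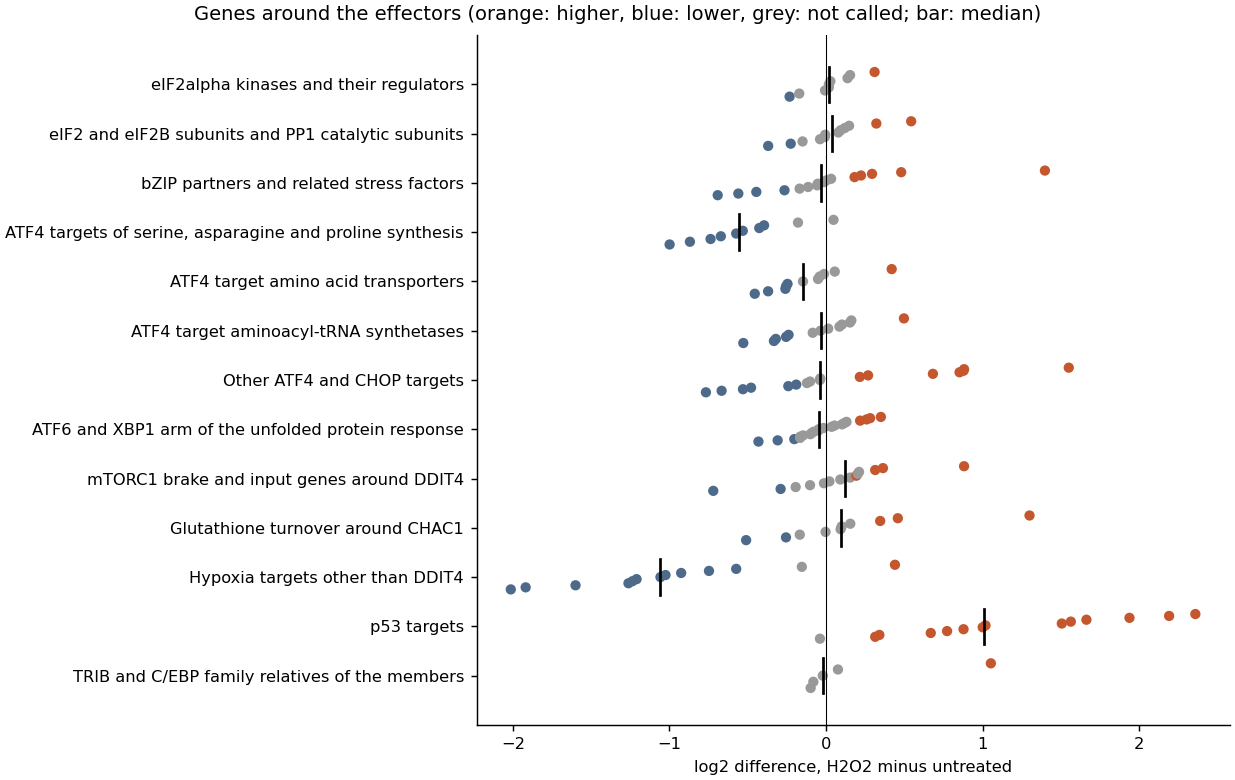
Log2 difference, H2O2 minus untreated (x axis), of every measured gene in 13 lists around the effectors, one point per gene coloured by call, with a bar at each list's median. Serine, asparagine and proline synthesis (median -0.55) and hypoxia targets (median -1.06) lie mostly to the left and p53 targets (median 1.01) to the right.

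The ATF6 and XBP1 arm of the unfolded protein response, the branch that works beside PERK and ATF4, had 4 of 21 genes higher and 3 lower (median -0.047). Over all genes the shares were 19.2% higher and 14.8% lower, close to those of this list. DNAJB11, an endoplasmic reticulum co-chaperone, rose by 0.35 ± 0.086, and DERL2, of the pathway that exports misfolded proteins, by 0.28 ± 0.080. SEC24D, a coat protein of transport vesicles, fell by 0.43 ± 0.062 and the disulfide isomerase PDIA4 by 0.31 ± 0.069. HSPA5, the chaperone BiP, stood at -0.017 ± 0.0645 and did not pass. The count of rises dropped to 2 without untreated replicate 1, 2 or 4 or without H2O2 replicate 2 or 4, and that of falls went to 5 without H2O2 replicate 3.

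Around DDIT4, 4 of 14 mTORC1 brake and input genes rose and 2 fell (median 0.12), where 19.2% of all genes rose and 14.8% fell. SESN2 rose, as did MTOR, the kinase itself, by 0.36 ± 0.083. DEPTOR, an inhibitor of mTOR kinase, fell by 0.72 ± 0.13 at a level below the array median. RHEB, the GTPase that activates mTORC1, fell by 0.29 ± 0.082, a call lost without H2O2 replicate 4 (adjusted p = 0.0512) and with the mean of its probe sets (adjusted p = 0.0531).

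DDIT4 has other known regulators besides ATF4, and their targets moved in opposite directions. Among hypoxia targets 11 of 13 fell and 1 rose (median -1.06), where 14.8% of all genes were called lower and 19.2% higher. PFKFB4, which sets glycolytic flux, went from 9.47 ± 0.083 to 7.46 ± 0.060, and PDK1, which holds back pyruvate oxidation, from 10.73 ± 0.036 to 8.82 ± 0.15. The glucose transporter SLC2A1 rose by 0.44 ± 0.063. Among p53 targets 13 of 14 rose and 0 fell (median 1.01), led by CDKN1A (8.53 ± 0.062 to 10.89 ± 0.072) and TIGAR (7.10 ± 0.24 to 9.29 ± 0.19). The untreated level of TIGAR was close to the array median, so the size of its rise is uncertain. Whether any of the regulators of these targets moved DDIT4 was not tested.

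Around CHAC1, 3 of 10 genes of glutathione turnover rose and 2 fell (median 0.096), where 19.2% of all genes rose and 14.8% fell. GGT5, which breaks down extracellular glutathione conjugates, rose by 1.30 ± 0.073 from an untreated level of 6.93 ± 0.061, close to the array median, so the same limit holds for it. GSS, glutathione synthetase, rose by 0.46 ± 0.069. GGCT, a cyclotransferase of glutathione breakdown, fell by 0.51 ± 0.087. SLC7A11, the cystine importer and an ATF4 target, was called at -0.26 ± 0.093 (adjusted p = 0.0475), but the call was lost without any array other than untreated replicates 1 and 2, at adjusted p = 0.0564 to adjusted p = 0.123. It was also lost with the replicate block (adjusted p = 0.0812), with array medians subtracted (adjusted p = 0.0514), with array weights (-0.15, adjusted p = 0.118) and without replicate 3 of both groups (-0.14, adjusted p = 0.182). Each of these leaves 1 fall in the list.

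The C/EBP-ATF element was searched on both strands from 250 bases before to 50 bases after each RefSeq start. It was present for 3.59% of 14230 measured genes with such a window. Among the effectors 9 had a window, and CHAC1, PPP1R15B and CEBPG held the element. NUPR1 was not matched. In the 3 lists of ATF4 target enzymes, transporters and synthetases it was present for 13 of 26 genes with a window. Of these 13, 4 were called lower and 1 higher, with a median of -0.035, where 14.8% of all genes were called lower and 19.2% higher. Of the 13 without it, 9 were called lower and 1 higher, with a median of -0.40. ASNS, asparagine synthetase, held the element and fell by 0.57 ± 0.064, while AARS1 and MARS1, for alanine and methionine, held it and stood at 0.014 ± 0.078 and -0.035 ± 0.065. The element was unevenly spread over the lists, so element and list cannot be told apart here. Every gene with a window in the synthesis list fell, and all but ASNS lacked the element. Most genes with a window in the synthetase list held it. The cAMP response element was found for 3.11% of genes and for PPP1R15A alone among the effectors. Its shorter core TGACG, which lies inside it, was found for 35.1% of genes and for ATF4, ATF5, PPP1R15A and PPP1R15B. The hypoxia element core ACGTG was found for 28.9% of genes and for ATF4 and DDIT4, at bases -125 to -121 in DDIT4. The C/EBP palindrome TTGCGCAA and the endoplasmic reticulum stress element (CCAAT and CCACG with a fixed gap) were found for 0.281% and 0.134% of genes and for 0 effectors. A match describes letters only, and a missing match says nothing of the factor.

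**Figure D5:**
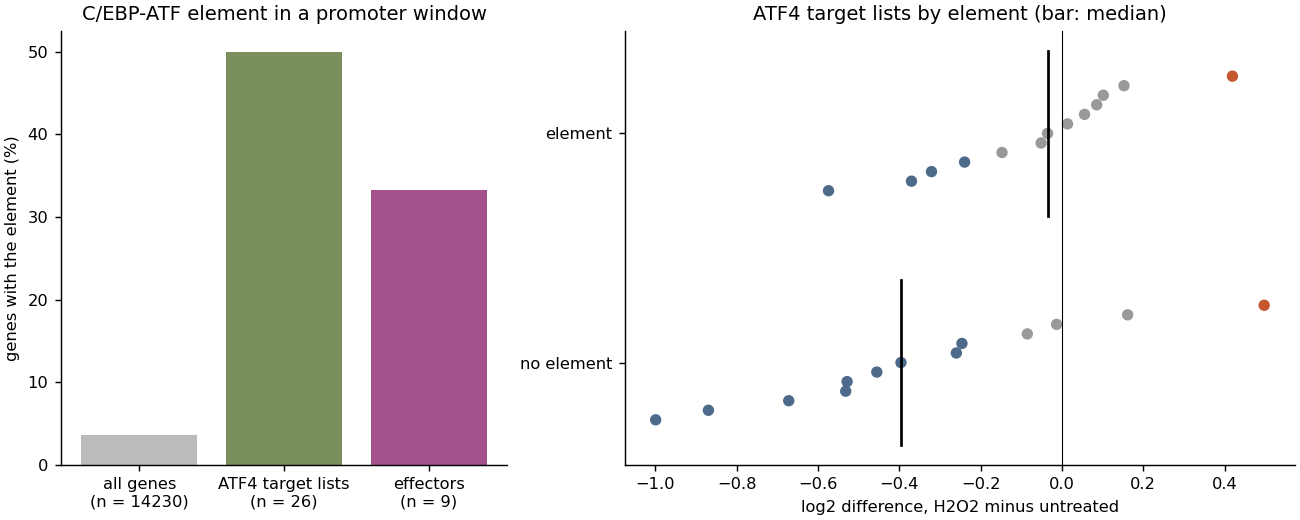
Left, share of genes (%) whose promoter window holds the C/EBP-ATF element, for all 14230 measured genes with a window, 26 genes of the ATF4 target lists and 9 effectors, at 3.59%, 13 of 26 and 33.3%. Right, log2 difference (x axis) of the 26 list genes with and without the element, one point per gene coloured by call, with bars at the medians, -0.035 with it and -0.40 without it. The element is unevenly spread over the lists, so element and list cannot be told apart.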

How the data were processed

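Total RNA of 8 HepG2 cultures was labelled through cRNA as sense cDNA, per the labels' protocols. The deposited values are log2 expression, 1 for each probe set on each array. Summarization and normalization by the authors are not given in the sources used here. Limma is named in the submitters' processing notes without a version. For arrays, their number limits the precision.

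Of 32321 probe sets, 19158 have 1 gene symbol in the platform annotation, 1388 have several and 11775 have none. Entrez identifiers of 19128 were found in RefSeq (GRCh38.p14), which changed 0 symbols. The probe set with the highest mean stood for each of 18404 genes, of which 637 had several. No 2 arrays shared more than 0.00619% identical values.

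Groups and replicate numbers come from the sample titles. The fit was limma 3.58.1 in R 4.3.3, with 1 mean per group, empirical Bayes moderation and Benjamini-Hochberg adjustment over all genes, checked on simulated data. The numbers do not pair the arrays in the labels, so the fit has no block. Pairs of members were compared with exact permutation tests (scipy 1.17.1). Gene lists are described by counts and medians only.

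The members, lists and tests were chosen with earlier results of these data known. Named are all members, from each list the 2 called genes that rose most and the 2 that fell most, where there were any, and the 3 genes most like the member with the largest rise and the member with the largest fall. HSPA5, ASNS, AARS1, MARS1, GADD45A, BBC3 and the markers were named after their values were seen. Promoter windows are RefSeq's. Python 3.11.15 with pandas 2.3.3, numpy 2.4.6 and matplotlib 3.10.9 was used. Alternatives were the replicate number as a block, quantile normalization, array medians, a filter on dim genes, trend and robust moderation, array weights, the mean of a gene's probe sets and leaving out each array. Leaving out replicate 3 of both groups and using the other ATF4 probe set were added after seeing the data.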

Additional observations from a re-analysis of the deposited data

Results flagged for a closer look

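In 98 groups of 4 arrays (49 named genes), 5 had an array whose gap to its nearest neighbour took up more of the group's range than Dixon's 95% critical value for 4 allows. Chance flags about 1 in 20 such groups. Among the effectors it was NUPR1, at 7.67 in untreated replicate 4 against 7.56 to 7.57 in the other untreated arrays, which is small beside its rise of 0.47. The others were DEPTOR in H2O2 replicate 4 (5.71, nearest 6.02), GGT5 in untreated replicate 1 (7.02, nearest 6.91), PDIA4 in H2O2 replicate 2 (11.27, nearest 11.15) and SESN2 in H2O2 replicate 1 (9.16, nearest 9.01).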

How the results depend on the processing

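Across the 17 alternatives, every effector kept its direction and its side of the threshold, ATF4's other probe set included, and the counts stayed at 3 higher and 4 lower. DDIT4 ranged from -1.22 to -1.03, PPP1R15A from 0.95 to 1.02, ATF4 from -0.50 to -0.37 and ATF5 from 0.28 to 0.39. Of 623 values of the other named genes 610 kept their call. The exceptions were SLC7A11, RHEB and DELE1. With array weights 4111 genes were called lower, against 2732, which moves the background. Array weights also gave 7 rises in the mTORC1 list (4 in the report), 2 rises each among eIF2alpha kinases and synthetases (1 each) and 5 falls in the ATF6 and XBP1 arm (3), a count that the dim filter and trend and robust moderation also gave. The replicate block gave 2 rises in that arm (4), and the dim filter 1 fall in the mTORC1 list (2). Without replicate 3 of both groups there were 3 rises among eIF2alpha kinases, 2 each among synthetases and family relatives, 5 falls in the ATF6 and XBP1 arm and 1 among p53 targets. Leaving out single arrays gave 2228 to 3882 genes called lower and 3110 to 3970 called higher. For the changes between related members, leaving out an array gave 1.03 to 1.14 for PPP1R15A against PPP1R15B, -0.85 to -0.76 for ATF4 against ATF5 and 0.20 to 0.33 for DDIT3 against TRIB3. With 3 against 4 arrays no two-sided exact p under 0.0571 is possible, so the first and second of these could not pass. With the replicate numbers as pairs (the replicate block), the values stayed at 1.07 and -0.80, and 4 pairs allow no exact p under 0.125. Same-numbered arrays had deviations correlated at -0.25 to 0.094 over all genes, and 1 of 8 arrays correlated best with its own number. In limma the replicate block changed the call of no effector. Signal over background was not given, which limits what dim genes such as CHAC1 can show.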

Other observations

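The C/EBP-ATF element was also read over all measured genes with a promoter window. Of 511 genes that hold it, 15.3% were called higher and 15.7% lower (limma), with a median log2 difference of -0.027. Of 13719 genes without it, 20.4% were called higher and 15.1% lower, with a median of -0.017. These are descriptions, and the difference was not tested.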
